A study of Mus musculus with 4 samples.

Results

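The reprimo genes Rprm and Rprml, 2 of the 31053 genes in the count matrices, were followed across the excitatory neuron subtypes and other cells of the mouse ventromedial prefrontal cortex (vmPFC). Both genes were picked with earlier results of these data known, because Rprm was higher in L5-S100b and L6-Npy neurons that carried many viral barcode transcripts. UMIs (unique molecular identifiers, 1 per captured transcript) were summed for each library and each subtype of the deposited cell table, and neurons of a subtype were also split into those with 5 or more UMIs of the feature named barcode and those with 0. Since these values chose the genes, the subtype levels and the barcode contrast are given below as descriptions without a test.

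The data came from MERGE-seq, which reads single-cell transcriptomes together with retrograde viral barcodes. Male C57BL/6 mice, 8 weeks old at injection, had received 5 rAAV2-retro viruses, each with EGFP and its own barcode, on 1 side of the brain, in the lateral hypothalamus (LH), the agranular insula (AI), the basolateral amygdala (BLA), the dorsomedial striatum (DMS) and the mediodorsal thalamus (MD). The unsorted group held 3 libraries, mouse 1, 2 and 3, and the sorted group held 1 library of EGFP-positive cells pooled from 3 mice, which has no replicate. All animals had received the viruses, so no library came from an uninjected mouse, and a neuron that took up no virus at a terminal is counted as barcode-zero whatever its targets were.

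Reprimo is a small protein of the cytoplasm, first known as a target that p53 induces, and its overexpression holds cells at G2 by keeping the Cdk1 and cyclin B1 complex out of action. Reprimo-like, the product of Rprml, is a paralogue of the same small family, and both genes consist of 1 exon. Adult cortical neurons do not divide, and Rprm transcripts are known in deep cortical layers, where corticothalamic neurons of layer 6 express Foxp2, Syt6 and Tle4.

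In the mm10 gene models, Rprm (ENSMUSG00000075334) lay on the minus strand at chr2:54084093-54085552, an exon of 1460 bases with a coding part of 327 bases. Rprml (ENSMUSG00000046215) lay on the plus strand at chr11:103649570-103650579, an exon of 1010 bases with a coding part of 351 bases. No annotated gene overlapped either of them. The longest exact run of letters shared by the transcripts was 20 bases, and 10 bases within their last 300 bases, where 3′ tags map. The promoters are shown because both genes were at their highest in the same subtype. Each is the 250 bases before the RefSeq transcript start, 5′ to 3′ on the gene's own strand, and capitals mark the GC box letters GGGCGG or their reverse CCGCCC. The Rprm promoter was chr2:54085553-54085802 on the minus strand and the Rprml promoter chr11:103649259-103649508 on the plus strand, both in GRCm38.p6.
Rprm: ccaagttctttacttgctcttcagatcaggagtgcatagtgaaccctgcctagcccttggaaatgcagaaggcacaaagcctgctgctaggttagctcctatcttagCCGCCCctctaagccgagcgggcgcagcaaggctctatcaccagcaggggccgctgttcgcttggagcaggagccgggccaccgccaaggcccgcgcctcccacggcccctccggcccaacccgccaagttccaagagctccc
Rprml: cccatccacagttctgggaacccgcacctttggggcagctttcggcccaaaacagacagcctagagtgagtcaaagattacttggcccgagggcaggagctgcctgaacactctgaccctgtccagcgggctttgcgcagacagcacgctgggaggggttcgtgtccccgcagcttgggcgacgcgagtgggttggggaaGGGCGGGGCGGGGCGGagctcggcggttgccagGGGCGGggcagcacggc

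Both promoters were richer in G and C than most. The Rprm promoter held 62.4% G and C and 13 CpG dinucleotides, and the Rprml promoter held 66.8% and 18, beside medians of 52.4% and 6 over 32851 RefSeq promoters of the same length. The GC box occurred 1 time in Rprm and 4 times, in part overlapping, in Rprml, and 32.7% of all promoters held at least 1 on either strand. The AP-1 letters TGANTCA, present in 6.75% of promoters, occurred 1 time in Rprml and were not found in Rprm. The letters TGACG or CGTCA of a CRE half-site (17.8% of promoters), the E-box CANNTG (66.2%), TATAAA or TTTATA (12.4%) and the p53 half-site (7.13%) were not found in either window.

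The libraries held 7243 to 8040 cell barcodes in the unsorted group and 2075 in the sorted one, with 54749198 to 87841541 UMIs each. The deposited table listed 9368 excitatory neurons in 7 subtypes, with a median of 21343.5 to 23213 UMIs per neuron for unsorted mouse 1 to 3 and 31669 after sorting. Pairs of libraries shared 5 to 30 cell barcodes, of which 0 to 4 were of neurons. Levels are CPM, the counts of a gene in each 1000000 summed UMIs. They are given as the mean ± SD of the 3 unsorted libraries with the sorted library beside it, and replicate spread is that between these libraries. Tags are counted at the 3′ end, so CPM does not scale with transcript length.

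Rprm was a gene of the L6-Syt6 subtype, the layer 6 neurons that express the corticothalamic markers. In L6-Syt6 it reached 1201, 1176 and 1157 CPM in unsorted mouse 1, 2 and 3 and 1224 in the sorted library. L5-Htr2c neurons followed with 319, 338 and 343 CPM in mouse 1, 2 and 3 and 122 in the sorted library, which held 4 such neurons. L5-S100b neurons had 100.9, 81.3 and 96.0 CPM, with 73.9 in the sorted library. These 3 subtypes were separate, since the lowest unsorted library of each lay above the highest of the next.

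The remaining 4 subtypes could not be fully ordered for Rprm. L2/3-Rorb had 54.1 ± 9.86 CPM (SD, n = 3; sorted 21.5), L2/3-Calb1 49.1 ± 23.9 (sorted 13.6), L5-Bcl6 38.6 ± 6.76 (sorted 29.0) and L6-Npy 27.9 ± 10.7 (sorted 18.8). Each overlapped its neighbour in the order. The lowest unsorted library of L2/3-Rorb, at 45.5 CPM, lay above the highest of L5-Bcl6 and L6-Npy, at 44.2 and 39.3. L6-Syt6 made up 55.7% of the unsorted neurons and held 95.3% ± 0.227 of their Rprm UMIs, 15.2 ± 0.738 times the CPM of all other neurons together.

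Rprml showed a flatter pattern with the same subtype on top. In L6-Syt6 it reached 476, 470 and 457 CPM in mouse 1, 2 and 3 and 432 after sorting. L2/3-Rorb (243 ± 5.41 CPM, sorted 175), L5-Bcl6 (241 ± 24.4, sorted 188) and L5-S100b (239.7 ± 9.32, sorted 169) overlapped one another and lay far below it. L5-Htr2c had 209 ± 7.72 CPM and L2/3-Calb1 195 ± 11.8, whose ranges were less than 1 CPM apart, and L6-Npy was the lowest with 153 ± 8.84 CPM. L6-Syt6 neurons held 74.2% ± 0.613 of the Rprml UMIs, 2.17 ± 0.0350 times the CPM of the other neurons. Rprml was lower in the sorted library than in each unsorted library in every subtype, a difference without replicates on the sorted side. The same held for Rprm in all subtypes but L6-Syt6 and L6-Npy.

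**Figure D1:**
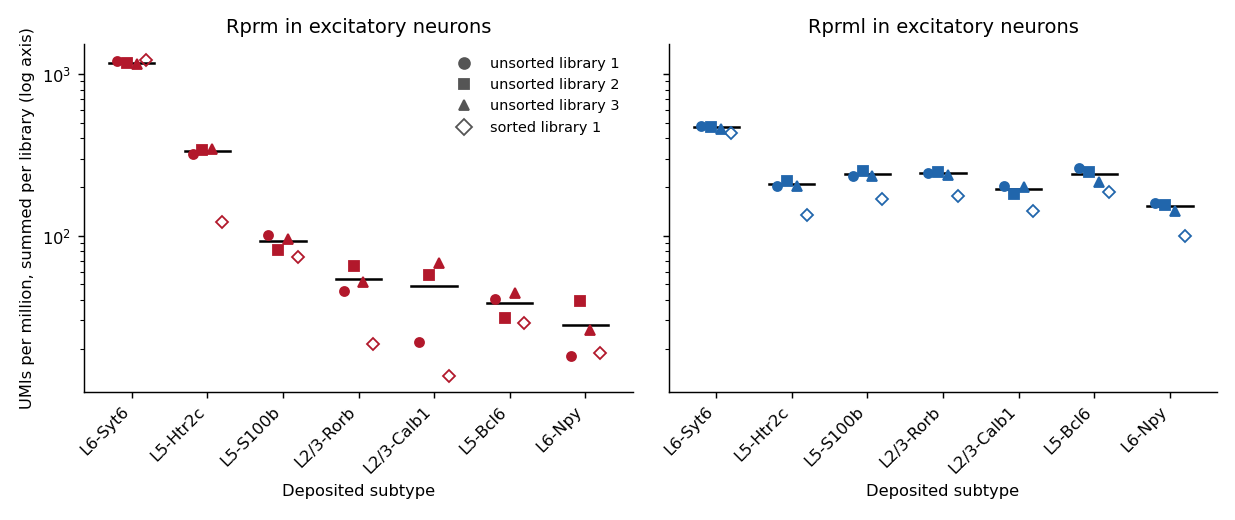
Rprm and Rprml in CPM (log axis) in the 7 deposited subtypes, with 1 point per library, the unsorted and sorted groups marked apart, and bars for the mean of the 3 unsorted libraries. Mean Rprm ran from 27.9 CPM in L6-Npy to 1178 in L6-Syt6, and mean Rprml from 153 to 468.

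Detection of Rprm was highest in L6-Syt6 and L5-Htr2c neurons, and that of Rprml was nearly complete in most subtypes. At least 1 Rprm UMI was found in 96.1% ± 0.288 of L6-Syt6 neurons and 93.2% ± 2.37 of L5-Htr2c neurons, against 17.96% ± 1.64 in L6-Npy. With every neuron thinned to 10000 UMIs, which left out 270 shallower neurons, these shares were 95.1%, 87.2% and 11.0%. L5-Bcl6 and L5-S100b neurons had Rprm in 46.1% and 54.1% (29.3% and 40.6% after thinning), so that L5-Bcl6, lower in mean CPM, stood above the 34.7% and 25.1% of L2/3-Rorb and L2/3-Calb1 (22.1% and 16.0%). Rprml was detected in 85.8% ± 3.56 of L6-Npy neurons and in at least 92.6% of each other subtype, up to 99.5% ± 0.0622 in L6-Syt6. Microglia, a class outside the neuronal lineage, had an Rprm UMI in 4.43% ± 0.988 and an Rprml UMI in 2.42% ± 0.549 of cells, at a median of 4158.5 UMIs per cell.

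In L6-Npy, L2/3-Calb1, L2/3-Rorb and L5-S100b, much of the Rprm signal sat in a few neurons. Over the 4 libraries, 12 of 1118 L6-Npy neurons had 10 or more Rprm UMIs and held 44.0% of the Rprm UMIs of that subtype. In L2/3-Calb1, 5 of 357 neurons held 64.1%, and in L2/3-Rorb 9 of 689 held 40.8%. The share in L5-S100b was 33.7%, held by 73 of 1409 neurons. L5-Bcl6 had 2 such neurons of 382, with 10.9% of the UMIs, and L5-Htr2c 34 of 321, with 28.6%. By contrast 4294 of 5092 L6-Syt6 neurons reached this level, and the highest count in 1 neuron was 138.

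The neurons with 10 or more Rprm UMIs differed from their subtype in more than Rprm. In L6-Npy they had a median of 43501.5 UMIs, against 20658.5 in neurons without Rprm. The L6-Syt6 markers were present in them, with Syt6 (synaptotagmin 6) detected in 83.3% and Foxp2, a transcription factor of corticothalamic neurons, in 91.7%, against 2.37% and 3.39% without Rprm. The same held in L2/3-Rorb, with 41976 UMIs and Foxp2 in 100% of these neurons, and in L2/3-Calb1, with 37052 UMIs and Foxp2 in 100%. In L5-S100b their median was 33475 UMIs and Foxp2 was detected in 32.9%, beside 25055.5 UMIs and 18.3% without Rprm. No doublet caller was run, and what part neurons captured together have in these values was not tested. The contrasts of other subtypes were also run without the neurons of 10 or more Rprm UMIs.

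Some genes shared the Rprm pattern closely over the 27 sums of a library and subtype with at least 10 neurons. Of 10518 genes with a mean of at least 5 CPM, the highest Pearson correlations with Rprm on the log2(CPM + 1) scale were those of Ndfip2 (0.949), an adaptor of Nedd4-type ubiquitin ligases, Cct2 (0.944), a chaperonin subunit, Gm40518 (0.942), Ddah1 (0.938), which breaks down methylated arginines, and Psmd12 (0.934), a proteasome subunit. Ddah1 had 159 CPM in L6-Syt6, 50.6 in L5-Htr2c and at most 10.2 in any other subtype. The lowest correlations were those of Rtn4rl1 (-0.955), a Nogo receptor relative, Arhgap39 (-0.948), a GTPase-activating protein, and the orphan receptor Gpr22 (-0.941). Rtn4rl1 had 1.00 CPM in L6-Syt6 and 46.3 to 90.7 in the subtypes other than L5-Htr2c. Rprml ranked 168 with 0.811, and 393 with 0.761 without the sorted library. The order of these genes depended on the measure and the libraries, since Efhd2 was first without the sorted library, and by Spearman's rho Ppa2 was first, Ddah1 ranked 109, Psmd12 158 and Rprml 239. The sums share libraries and subtypes, so these are descriptions.

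Among the named classes other than excitatory neurons, oligodendrocyte precursors stood out for Rprm alone. Excitatory cells outside the deposited table had 689 ± 98.6 CPM of Rprm over the unsorted libraries, and cells of no named class 392 ± 11.7. The precursor class carried all 5 of its markers Pdgfra, Cspg4, C1ql1, Gpr17 and Olig2, and it held 1642 cells, all from the unsorted libraries. Rprm reached 249, 235 and 227 CPM in mouse 1, 2 and 3, which was above each neuronal subtype other than L6-Syt6 and L5-Htr2c. Of these cells 60.9% ± 0.670 had an Rprm UMI at a median of 4105 UMIs per cell. With all cells thinned to 2000 UMIs the share was 37.6% ± 1.32, beside 2.46% of microglia, 13.6% of L5-S100b and 80.2% of L6-Syt6 neurons.

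Rprml was close to absent from the same cells, at 5.15 ± 2.10 CPM and with a UMI in 2.08% ± 0.892 of them, the level of microglia (5.94 ± 1.15 CPM). The Rprm signal was spread over many precursors, since 1000 had a UMI, 400 had 2 or more and none had 10 or more, with a highest count of 8. They held 1612 Rprm and 35 Rprml UMIs, a ratio of 46.1, while the ratio was 2.52 in L6-Syt6 and 1.68 to 2.22 in microglia, endothelial, mural, astrocyte and oligodendrocyte classes. Against Hs3st4, a gene of L6-Syt6 neurons, the ratio was 89.6 in the precursors and 3.26 in L6-Syt6, while against Syt6 it was 7.20 and 8.91, with 224 Syt6 UMIs in the precursors. Whether the precursors express Syt6 was not tested. The share of precursors with an Rprm UMI was above that of microglia at equal depth. What part free RNA has in the Rprm values of the precursors was not tested.

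The other named classes outside the excitatory neurons had less Rprm than the precursors in the unsorted libraries. Microglia had 11.8 ± 2.96 CPM, endothelial cells 11.2 ± 4.00 and oligodendrocytes 22.5 ± 8.98. Within the oligodendrocytes, a cluster of 109 cells led by Gpr17, a marker of committed precursors, had 98.6 ± 72.9 CPM with Rprm in 27.5% of cells, and 1 cell held 45.3% of its Rprm UMIs. Astrocytes had 117 ± 50.1 CPM, of which 7 of 512 cells held 89.1%. Inhibitory neurons had 42.9 ± 5.19 CPM, and of their clusters a Vip cluster with Calb2, 542 cells, had the highest mean with 101 ± 7.85 CPM and Rprm in 29.3% of cells. In it 8 cells held 41.2% of the Rprm UMIs, and another cluster led by Vip, 231 cells, had 26.99 ± 10.3 CPM and Rprm in 13.4% of cells.

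**Figure D2:**
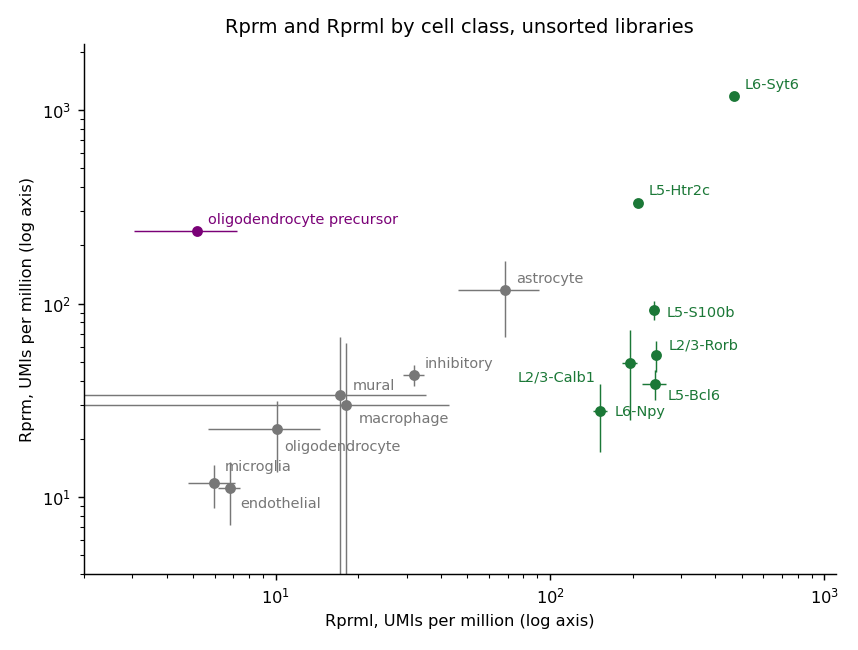
Rprm against Rprml in CPM (log axes) in each neuronal subtype and each other named cell class, as means of the 3 unsorted libraries with SD bars. Unnamed cells and excitatory cells outside the deposited table are not shown. Oligodendrocyte precursors lie alone at 237 CPM of Rprm and 5.15 CPM of Rprml, while the other glial and vascular classes hold at most 117 CPM of Rprm. SD bars that reach 0 are cut at the axis.

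Even within L6-Syt6 Rprm was not uniform, and its level differed with the genes of layer 6b. Of the 5092 neurons, 4.32% had no Rprm UMI. Neurons were sorted by how many of Cplx3 (complexin 3), Nxph4 (neurexophilin 4) and Ctgf, all known markers of layer 6b, had a UMI. In the 3261 neurons with none, Rprm was at 1371, 1353 and 1332 CPM in mouse 1, 2 and 3 and 1383 after sorting. In the 1629 neurons with 1 of the genes it was at 989.6, 927 and 945 CPM, with 1069 in the sorted library. In the 202 neurons with 2 or 3 of them it was at 377, 331 and 214 CPM, with 278 in the sorted library. The 3 groups did not overlap in any library, and this step was described after the values of Cplx3 and Nxph4 had been seen.

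Rprml had the same order with smaller gaps. It had 489 ± 8.51, 449 ± 17.2 and 300.0 ± 26.8 CPM over the unsorted mice, with sorted values of 460, 404 and 262. After thinning to 10000 UMIs, Rprm was missing from 1.53% ± 0.142, 5.82% ± 0.0696 and 53.3% ± 5.70 of these neurons. The 202 neurons with 2 or 3 layer 6b genes gave 105 of the 243 L6-Syt6 neurons without Rprm.

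**Figure D3:**
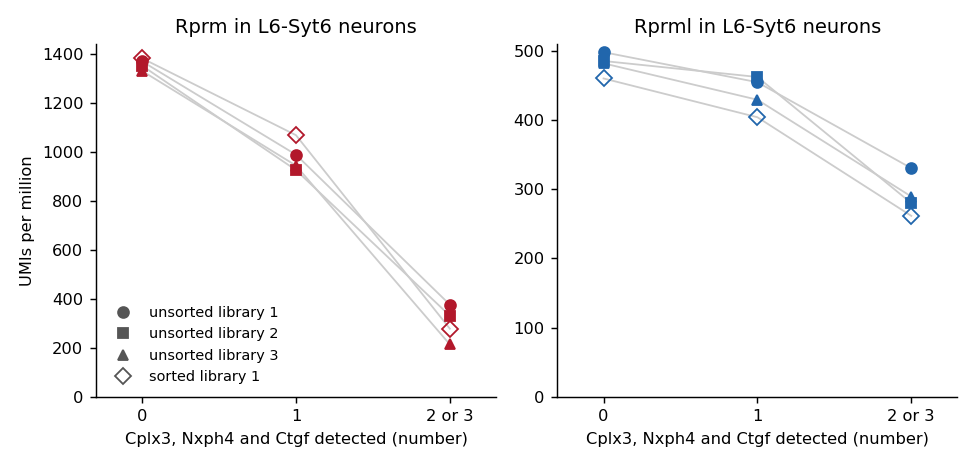
Rprm and Rprml in CPM in L6-Syt6 neurons with 0, 1 and 2 or 3 of Cplx3, Nxph4 and Ctgf detected, with 1 line per library. Over the unsorted libraries Rprm averaged 1352, 954 and 307 CPM, and Rprml 489, 449 and 300.0.

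The barcode contrast that chose the genes asks whether neurons labelled from the injected targets differ from unlabelled ones of the same subtype. In L5-S100b the barcode-zero neurons, 195 in all, had 53.5, 30.2 and 84.1 CPM of Rprm in unsorted mouse 1, 2 and 3 and 27.8 in the sorted library. The 958 barcode-high neurons had 114, 89.7, 100.3 and 88.5 CPM in the same order. Every high value lay above every zero value, and the mean was higher at each step of barcode UMIs, from 48.9 ± 26.2 CPM (n = 4 libraries) at 0 barcode UMIs to 68.2 ± 16.3 at 1 to 4, 93.5 ± 12.6 at 5 to 19 and 99.5 ± 16.5 at 20 or more. The bins of 1 to 4 and 5 to 19 UMIs are those just outside and just inside the limit of 5. Barcode-high L5-S100b neurons had library medians of 25553.5 to 34389 UMIs beside 19306.5 to 28185. With thinned neurons Rprm was found in 28.6% ± 6.14 of barcode-zero and 42.8% ± 3.87 of barcode-high neurons. The log2 fold change of the edgeR fit was 1.01 ± 0.14 (SE), 0.92 without the neurons of 10 or more Rprm UMIs and 0.88 to 1.39 without each library in turn.

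L6-Npy differed from L5-S100b in how the contrast was carried. Its 232 barcode-zero neurons had 12.5, 27.2, 13.9 and 17.0 CPM of Rprm in mouse 1, 2, 3 and the sorted library. The 535 barcode-high neurons had 23.7, 46.0, 41.1 and 14.4 CPM, so the groups overlapped and the sorted library went the other way. The share of thinned neurons with Rprm was not higher, 11.0% ± 0.542 against 12.8% ± 1.68. The log2 fold change was 0.83 ± 0.19, and -0.13 ± 0.21 without the 12 neurons of 10 or more Rprm UMIs. In L2/3-Calb1 it was 1.26 ± 0.37 from 3 unsorted libraries, -0.09 without mouse 2, 2.52 without mouse 3 and -0.0027 without its neurons of 10 or more Rprm UMIs.

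L6-Syt6 showed a small and even difference. Barcode-zero neurons had 1128, 1102, 1090.0 and 1099 CPM of Rprm and barcode-high neurons 1269.8, 1264, 1238 and 1324, with no overlap and a log2 fold change of 0.25 ± 0.05. In L2/3-Rorb and L5-Bcl6 it was -0.05 ± 0.16 and -0.23 ± 0.23, and -0.60 and -0.54 without the neurons of 10 or more Rprm UMIs. Rprml had positive values as well, 0.41 ± 0.08 in L5-S100b and 0.30 ± 0.08 in L6-Npy, while L6-Syt6 had 0.23 ± 0.06. Its L5-S100b levels were 213, 183, 212 and 104 CPM in barcode-zero and 251, 259, 242 and 182 CPM in barcode-high neurons, higher in 4 of 4 libraries with overlapping groups.

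**Figure D4:**
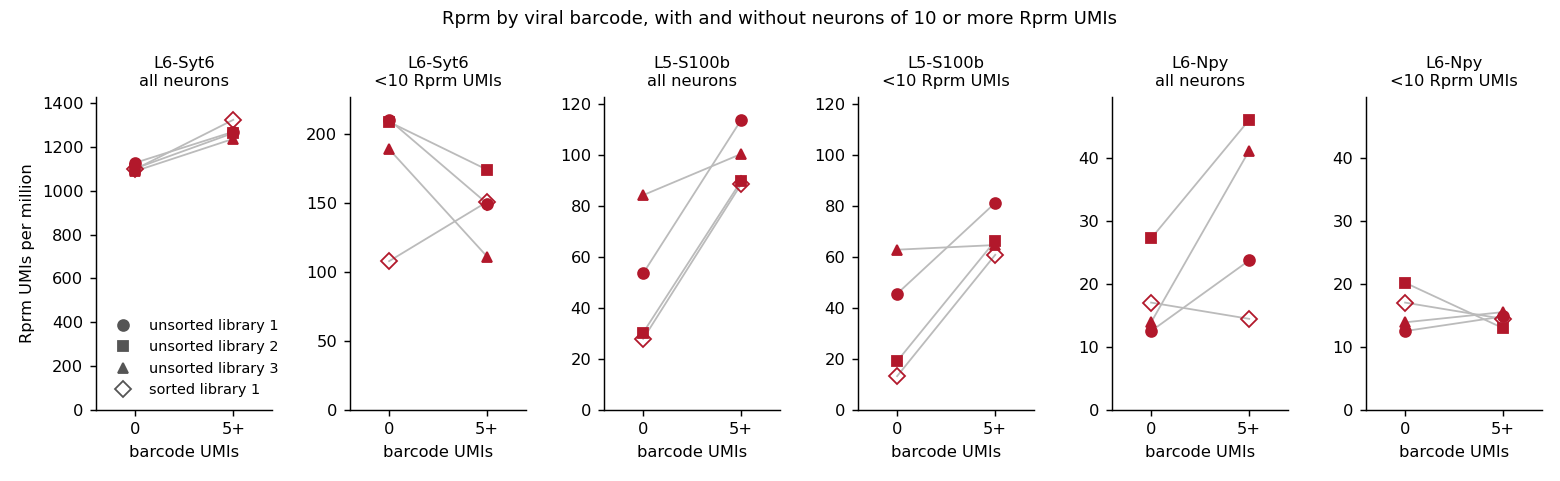
Rprm in CPM in barcode-zero and barcode-high neurons of L6-Syt6, L5-S100b and L6-Npy, with 1 line per library, over all neurons and over those with under 10 Rprm UMIs. Over all neurons, barcode-high neurons are above in 4 of 4 libraries in L5-S100b (means of 48.9 and 98.0 CPM) and L6-Syt6 (1105 and 1274), and in 3 of 4 in L6-Npy (17.6 and 31.3).

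In L5-S100b, L6-Npy and L6-Syt6, 1 or 2 of the tested p53 targets were called in this contrast. A call needed a log2 fold change of 0.5 or more in size together with a p under 0.05 from edgeR's quasi-likelihood test, adjusted by Benjamini-Hochberg, with the library as a block. This gave 318 of 12030 genes in L5-S100b (2.64%) and 84 of 10839 in L6-Npy (0.775%), while L6-Syt6 gave 225 of 13436 (1.67%). Single libraries weighed on these counts, since L5-S100b had 180 without mouse 2, L6-Npy 46 without mouse 3 and L6-Syt6 73, 29 and 79 without mouse 1, 2 and 3. Of 19, 17 and 19 tested p53 targets, 1 rose in L5-S100b (Gadd45a, a growth arrest gene, 0.74), 2 rose in L6-Npy (the Cdk inhibitor Cdkn1a, 0.55, and the antiproliferative gene Btg2, 0.65), and in L6-Syt6 Btg2 rose (0.57) and Phlda3, an inhibitor of Akt signalling, fell (-0.55). DESeq2 called 0, 0 and 1 of these lists. Their medians were -0.01, 0.09 and 0.06 on the log2 scale, with the median of all tested genes at 0.00 in each. Of the p53 family and regulators none of the 8 tested members was called in any of these subtypes, with 0, 1 and 0 at an unadjusted p under 0.05 and none by DESeq2.

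Among G2/M genes, Ccnb1, the cyclin of the complex that reprimo restrains, rose with the barcode in L5-S100b (log2 fold change 2.22, 15.7 against 3.33 CPM). Gadd45b rose in L6-Npy (0.75) and in L6-Syt6 (0.79), and Gadd45g in L6-Syt6 (0.60), both stress-inducible relatives of Gadd45a. The called G2/M genes were 1 of 9, 1 of 7 and 2 of 15 tested in L5-S100b, L6-Npy and L6-Syt6. Of all tested genes 1.07%, 0.600% and 0.796% rose in the same order, and DESeq2 called 1, 0 and 2 of the list. Some projection and layer markers were called in L5-S100b, where S100b (1.17), Deptor (1.05) and Fezf2 (0.55) rose and Cux2 (-2.18), Calb1 (-1.01), Ntsr1 (-1.02) and Bcl11b (-0.71) fell. Of 8 tested upper-layer markers 2 rose and 2 fell, and of 7 corticothalamic markers 1 rose and 1 fell. Of 4 tested extratelencephalic, near-projecting and layer 6b markers 1 fell. Beside them 1.07% of all tested genes rose and 1.57% fell, and DESeq2 called 2, 0 and 1 of these lists. In L6-Syt6 the layer 6b genes Cplx3 (-1.61) and Nxph4 (-0.86) fell with the barcode, as did Tshz2 (-1.85), Slc24a3 (-0.93) and Etv1 (-0.52), and Rorb rose (0.65). There 3 of 7 tested markers of the last list fell, and of 8 upper-layer markers 1 rose and 2 fell. Of all tested genes 0.796% rose and 0.878% fell, and none of 7 corticothalamic markers was called. Activity genes, which neurons transcribe within minutes of strong firing, were called upward in 7 of 8 cases for L6-Npy, and in 4 and 3 of 8 for L6-Syt6 and L5-S100b, while DESeq2 called 0, 5 and 1 of them. Their medians were 0.72, 0.50 and 0.39 on the log2 scale, and the largest values were 1.18 and 0.90 for Egr4 in L6-Npy and L6-Syt6 and 0.57 for Nr4a1 in L5-S100b.

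Neurons with and without Rprm were then compared within a subtype. Neurons were thinned to 10000 UMIs, Rprm-zero neurons had no thinned Rprm UMI, and Rprm-high neurons had at least 3 in L6-Syt6 and L5-S100b or 1 in L6-Npy and L2/3-Rorb. Unthinned counts were then summed and Rprm itself was left out. The genes called numbered 2587 of 13707 in L6-Syt6 (18.9%), with 1420 higher and 1167 lower. L5-S100b had 783 of 11521 (6.8%), and L6-Npy had 83 of 11342 (0.732%), beside 284 of 10638 in L2/3-Rorb (2.67%). L6-Npy had 55 and 26 without mouse 1 and 2, and L2/3-Rorb 166 and 172 without mouse 2 and 3. Without the neurons of 10 or more Rprm UMIs the counts were 718 in L5-S100b, 255 in L2/3-Rorb and 36 in L6-Npy. The L6-Syt6 groups held 4468 and 243 neurons of 4 libraries, and the others 107 to 122 Rprm-high neurons of 3 libraries. Median UMIs per L6-Syt6 neuron ran from 22538 to 36471 in Rprm-high and 22901 to 33786 in Rprm-zero neurons of a library. These calls come from neurons chosen by 1 gene of the cells compared, so they describe what goes with Rprm in a neuron.

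Rprml, the paralogue, was higher where Rprm was present. In L6-Syt6 it had 496, 489, 476 and 453 CPM in Rprm-high neurons of mouse 1, 2, 3 and the sorted library, and 251, 253, 230.5 and 197 in Rprm-zero neurons. The groups did not overlap, with a log2 fold change of 1.09 ± 0.05 (SE) and an adjusted p of 1.53e-23 in edgeR's quasi-likelihood test. In L5-S100b it had 289.9, 302 and 321 against 214, 221 and 203 CPM in the unsorted libraries, a rise of 0.54 ± 0.06 with an adjusted p of 1.74e-07 in the same edgeR test. It was called in both, and without the neurons of 10 or more Rprm UMIs the L5-S100b value was 0.46. In L6-Syt6 without neurons that had a Cplx3 or Nxph4 UMI the value was 1.03 ± 0.06.

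In the other subtypes Rprml did not pass the test. In L6-Npy it had 191, 199 and 109 CPM against 156, 148 and 98.5 in unsorted mouse 1 and 2 and the sorted library, 0.29 ± 0.09 with an adjusted p of 0.0855 in edgeR, and it passed at 0.35 without the sorted library. It was 0.14 without the neurons of 10 or more Rprm UMIs in L6-Npy and 0.12 in L2/3-Rorb. In L2/3-Rorb it had 244, 282 and 284 against 244, 235 and 225 CPM, 0.19 ± 0.07 with an adjusted p of 0.11 in edgeR, and it passed at 0.30 without mouse 1. Whether the Rprml difference itself varies between subtypes was not tested.

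Layer 6b genes were among those that fell most in Rprm-high L6-Syt6 neurons. The lowest among genes with the same direction in every library were 5930412G12Rik, without a UMI in Rprm-high neurons and at least 162-fold lower there (floor of 3 counts over the group), Moxd1, a monooxygenase relative (-8.17), Cplx3 (-7.71), the potassium channel subunit Kcnj5 (-7.66) and the adhesion receptor Adgrg6 (-7.11). Nxph4 (-5.05) and Ctgf (-2.94) fell as well. The highest were Urah, an enzyme of urate breakdown, Nts, the peptide neurotensin, Mme, the peptidase neprilysin, Cebpd, a transcription factor, and Gm39377. None of these had a UMI in Rprm-zero neurons, which makes them at least 16.0, 14.5, 8.41, 6.92 and 5.18-fold higher in Rprm-high neurons, at a floor of 3 counts over the group.

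In Rprm-high L6-Syt6 neurons, where 10.4% of all tested genes rose and 8.51% fell, Foxp2 (0.80) and Syt6 (0.90) rose, 2 of 7 tested corticothalamic markers with a list median of -0.02, and Crym, a thyroid hormone binding protein, rose by 1.35. Of the upper-layer list 6 of 8 fell, among them Cux2 (-2.53), Calb1 (-2.12), Rorb (-1.27), S100b (-0.95) and Slc24a3 (-0.59). The near-projecting marker Tshz2 rose (0.70) and the serotonin receptor Htr2c fell (-2.15). The endothelial marker Flt1 fell (-2.19), 1 of 8 tested non-neuronal markers.

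Growth arrest genes were mixed in the same neurons. Of 19 tested p53 targets, Gadd45a (1.72), Btg2 (0.91) and Plk3 (0.73) rose, and Phlda3 (-0.997), Sesn2 (-0.95), Perp (-0.79) and Trp53inp1 (-0.67) fell, with a list median of 0.17 beside 0.00 over all tested genes. Ccnb1 rose from 5.36 to 19.8 CPM (log2 fold change 1.98), and Gadd45b (1.99) and Gadd45g (1.43) rose with it, 3 of 13 tested G2/M genes beside the 10.4% of all tested genes that rose. None of the 8 tested members of the p53 family and regulators was called, with 1 at an unadjusted p under 0.05 and 0 called by DESeq2. All 8 activity genes rose, from 0.57 for Egr1 to 1.55 for Egr4, with a median of 1.10.

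Rprm-high neurons of L5-S100b and L6-Syt6 shared some changes. Syt6, Foxp2, Crym, Tshz2, Gadd45a and Ccnb1 rose in both, and Cux2, Calb1 and S100b fell in both. The 5 highest and 5 lowest genes of L5-S100b were others than those of L6-Syt6. The highest were Tshz2 (3.89), Sla, an adaptor of Src type (3.80), Pde1c, a cyclic nucleotide phosphodiesterase (3.26), B430010I23Rik (3.17) and the complement protease Masp1 (3.03). Scn7a, Npy2r, Drd2 and Spink13 had no UMI in Rprm-high neurons and were at least 10.7, 9.46, 4.66 and 3.51-fold lower there, at a floor of 3 counts over the group. Oprk1, the kappa opioid receptor, fell by 4.27 on the log2 scale. Of 7 corticothalamic markers 5 rose, namely Syt6 (2.75), Hs3st4 (1.66), Foxp2 (1.26), Tle4 (1.13) and Fezf2 (0.70), and the list median was 1.13. Without the neurons of 10 or more Rprm UMIs, Hs3st4 (1.11) and Fezf2 (0.70) rose and Sulf1 (-3.83) fell of 6 tested markers, with a list median of -0.07, and Syt6 was not among the genes tested. Crym (1.11) and Deptor (1.38) rose, and Cux2 (-2.73), Calb1 (-1.49), S100b (-0.73) and Bcl11b (-0.51) fell.

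The p53 list was split in L5-S100b too, with Gadd45a (1.59) and Ccng1 (0.72) higher and Plk2 (-0.66) lower of 19 tested. Ccnb1 (1.02) rose among the G2/M genes, of which none was called without the neurons of 10 or more Rprm UMIs, and Arc (0.66) among the activity genes. The astrocyte gene Aldoc rose (1.02), 1 of 5 tested non-neuronal markers. No member of the p53 family and regulators was called among 8 tested, with 0 at an unadjusted p under 0.05 and 0 by DESeq2.

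Corticothalamic markers were also called upward in L6-Npy and L2/3-Rorb. Most of these were either not called or not tested without the neurons of 10 or more Rprm UMIs. In L6-Npy the highest were Syt6 (3.63), the sulfotransferase gene Hs3st4 (3.58), Tmem215 (3.33), Lsp1 (3.21) and the ubiquitin ligase Rnf152 (3.19). Foxp2 (2.98) and Crym (0.88) were higher in 2 of 3 libraries, and Tle4 (1.62) rose, so that 4 of 7 corticothalamic markers were called, with a list median of 1.62, and DESeq2 called 1. In L6-Npy neurons with 1 to 9 Rprm UMIs, Syt6 was detected in 1.82%, Foxp2 in 3.64% and Hs3st4 in 4.09%, beside 2.37%, 3.39% and 4.18% of those with none. The lowest were Nkd1, a Wnt pathway inhibitor (-2.19), Nell1 (-1.47), the histone demethylase Phf8 (-1.26), Serpine2 (-1.17) and Tmem200a (-1.11). Once the neurons of 10 or more Rprm UMIs were left out, 0 of 4 tested corticothalamic markers were called, with a list median of -0.23, and Tle4 was at 0.59. Syt6, Foxp2 and Hs3st4 were then not among the genes tested. Of the p53 target, G2/M and activity lists no member was called in L6-Npy, with 3, 0 and 0 at an unadjusted p under 0.05 and 0 by DESeq2.

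In L2/3-Rorb the highest were Sebox (4.66), Sla (4.55), Rnf152 (3.53), Prss35 (3.12) and Sema5b (3.11). Of 6 tested corticothalamic markers 5 rose (list median 2.05), Sulf1 (2.98), Syt6 (2.96), Foxp2 (2.46), Hs3st4 (1.63) and Tle4 (0.74). Hs3st4 (1.03) was the 1 marker called of 4 tested once the neurons of 10 or more Rprm UMIs were left out, and Foxp2 was then at 0.63. Syt6 and Sulf1 were then not among the genes tested. Pou3f1 (1.58), Bcl11b (1.43), Calb1 (1.41), Crym (0.70), Rorb (0.57) and the p53 target Ccng1 (0.53) rose, and S100b (-1.31) and Etv1 (-0.89) fell. Among the lowest were genes of inhibitory neurons, Gad1 (-4.53) and Gad2 (-3.55), which make GABA, and Rftn1 (-2.96) and Rrad (-2.90). In L6-Npy and L2/3-Rorb none of the 8 tested p53 family members was called, with 0 at an unadjusted p under 0.05 and 0 by DESeq2.

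Activity gave a comparison that did not choose the genes. In L6-Syt6, L5-S100b and L6-Npy its groups also differed in the share of barcode-high neurons, the contrast that chose them. Neurons were ranked within library and subtype by the thinned UMIs of 8 activity genes (Fos, Fosb, Junb, Egr1, Egr4, Arc, Npas4 and Nr4a1), and the top part was set against an equally large bottom part, 1654 neurons each in L6-Syt6 and 100 to 439 in the other subtypes. Tissue dissociation can also induce these genes, and its part was not tested. Genes called among all tested were 8.59% in L6-Syt6 and 6.52% in L5-S100b, and 3.92% in L6-Npy. Without the fold limit, the shares with an adjusted p under 0.05 were 1.17% in L5-Htr2c, 1.46% in L5-Bcl6, 2.11% in L2/3-Calb1 and 6.54% in L2/3-Rorb, then 7.87% in L6-Npy, 18.7% in L5-S100b and 39.6% in L6-Syt6, so an adjusted p under 0.05 was common in L6-Syt6. For both genes this limit alone is used here.

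Rprml rose with activity in 4 of 7 subtypes. Without the neurons of 10 or more Rprm UMIs, a fit run outside L6-Syt6, it still passed in L5-S100b and L2/3-Rorb. In L6-Syt6 it had 527, 524, 498 and 459 CPM in activity-high and 436, 434, 419 and 391 in activity-low neurons of mouse 1, 2, 3 and the sorted library, 0.34 ± 0.02 on the log2 scale (edgeR adjusted p of 6.89e-12). In L5-S100b it had 303, 316, 269 and 222 against 185, 211, 172 and 118 CPM, and the groups did not overlap, with 0.74 ± 0.05 (edgeR adjusted p of 6.07e-13). Each library was higher in both subtypes. L2/3-Rorb (250, 272, 269 and 189 against 228, 195, 203 and 139 CPM) gave 0.39 ± 0.07 with an edgeR adjusted p of 1.52e-05. L2/3-Calb1, from the 3 unsorted libraries (210, 200 and 247 against 165, 138 and 192 CPM), gave 0.44 ± 0.11 with an edgeR adjusted p of 0.00572, but it did not pass without mouse 2 (0.38) or without the neurons of 10 or more Rprm UMIs (0.39). Values in L5-Bcl6 (0.25 ± 0.08, 0.207), L5-Htr2c (0.08 ± 0.12, 0.929) and L6-Npy (0.04 ± 0.09, 0.849) did not pass the edgeR test, each given with its adjusted p.

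Rprm passed the edgeR test in 5 subtypes, with the libraries most alike in L6-Syt6. In DESeq2 it did not pass in L5-S100b, L6-Npy, L2/3-Rorb or L2/3-Calb1. In L6-Syt6 it had 1292, 1230, 1219 and 1311 CPM in activity-high and 1149, 1148, 1134 and 1170 in activity-low neurons, without overlap, 0.21 ± 0.02 with an edgeR adjusted p of 2.37e-09. In L5-S100b it had 147, 98.5, 93.1 and 66.9 against 56.4, 74.0, 60.7 and 72.8 CPM, higher in 3 of 4 libraries, 0.63 ± 0.12 with an edgeR adjusted p of 0.000119. Without the neurons of 10 or more Rprm UMIs, a cut on the tested gene itself, the L5-S100b value was 0.59 ± 0.09 and passed. With barcode-zero neurons only, the L6-Syt6 value was 0.31 and passed, and the L5-S100b value was 0.96 and did not. The share of barcode-high neurons differed between the activity groups, at 33.5% to 75.2% of activity-high and 20.6% to 39.8% of activity-low L6-Syt6 neurons. It was 73.8% to 79.2% against 55.4% to 71.2% in L5-S100b and 60.2% to 70.3% against 25.0% to 46.2% in L6-Npy. Its part in the results was otherwise not tested.

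In L6-Npy, L2/3-Rorb and L2/3-Calb1 the Rprm value rested on the few neurons with many Rprm UMIs. L6-Npy had 12.4, 68.4, 46.1 and 14.4 CPM in activity-high and 19.3, 13.04, 6.71 and 17.9 in activity-low neurons, higher in 2 of 4 libraries, 1.22 ± 0.28 with an edgeR adjusted p of 0.00265. L2/3-Rorb had 36.0, 72.1, 70.0 and 17.2 against 40.8, 30.4, 19.7 and 30.5 CPM, also higher in 2 of 4, 0.72 ± 0.17 with an edgeR adjusted p of 0.00256. L2/3-Calb1 had 24.0, 49.3 and 163 against 18.9, 15.5 and 13.4 CPM, higher in 3 of 3 unsorted libraries, 2.31 ± 0.25 with an edgeR adjusted p of 8.5e-18. Without the neurons of 10 or more Rprm UMIs the values were 0.17, 0.13 and 0.20, and none passed the test. The call was also lost without mouse 2 or 3 in L6-Npy (0.69 and 0.79) and in L2/3-Rorb (0.51 and 0.28), and without mouse 3 in L2/3-Calb1 (1.12). L5-Bcl6 (-0.57 ± 0.20, edgeR adjusted p of 0.235) and L5-Htr2c (-0.22 ± 0.10, 0.466) did not pass.

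**Figure D5:**
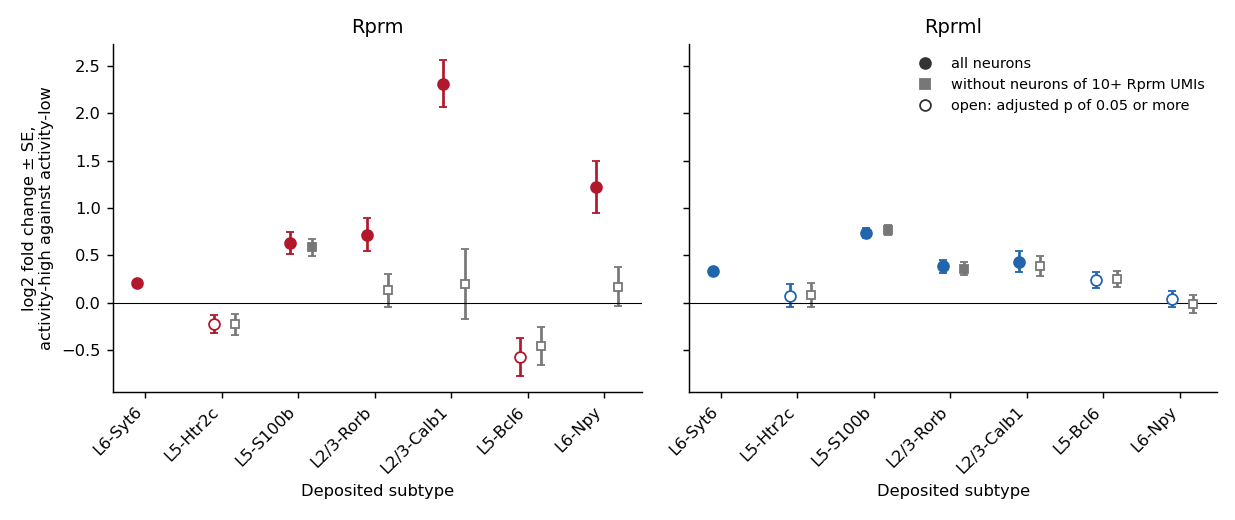
Log2 fold change (± SE) of Rprm and Rprml between activity-high and activity-low neurons in each subtype, from edgeR with the library as a block, and the values without neurons of 10 or more Rprm UMIs outside L6-Syt6. Rprm in L6-Npy, L2/3-Rorb and L2/3-Calb1 is at 0.17, 0.13 and 0.20 without those neurons, and Rprml in L5-S100b at 0.77.

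The difference in the activity effect between subtypes was tested in 1 fit over L6-Npy, L5-S100b and L6-Syt6 with 11827 genes, in which 19%, 10.9% and 8.68% of genes had an adjusted p under 0.05 for L5-S100b minus L6-Syt6, L6-Npy minus L6-Syt6 and L5-S100b minus L6-Npy. Rprml rose more in L5-S100b than in L6-Syt6, by 0.40 ± 0.07 on the log2 scale (edgeR interaction, adjusted p of 3.47e-05), and more than in L6-Npy, by 0.69 ± 0.10 (edgeR, 1.0e-06). For Rprm the excess of L5-S100b over L6-Syt6 was 0.41 ± 0.15 with an edgeR adjusted p of 0.0494, and it did not pass without mouse 1, 2 or 3 (0.12, 0.47 and 0.41). L5-S100b and L6-Npy differed by -0.62 ± 0.34 for Rprm, which did not pass (edgeR adjusted p of 0.304) but did without mouse 1 (-1.35). The fit was repeated without the neurons of 10 or more Rprm UMIs in L5-S100b and L6-Npy. Rprm then differed by 0.37 ± 0.09 between L5-S100b and L6-Syt6 (edgeR adjusted p of 0.00311) and by 0.42 ± 0.23 between L5-S100b and L6-Npy, which did not pass (edgeR adjusted p of 0.303). This cut uses the count of the tested gene and left L6-Syt6 whole, where 4294 of 5092 neurons reach it. The Rprm values after the cut are therefore a description of the kept neurons.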

How the data were processed

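The authors aligned Chromium 3′ v3 libraries with Cell Ranger v3.0.2 to mm10 with the projection barcodes added, and deposited raw UMI counts of called cells for 3 unsorted libraries and 1 sorted library, with no normalization. The submitters' processing notes also name Seurat 3.1.4. The feature named barcode was taken as the sum of the 5 viral barcodes, which was not tested, and target calls of single neurons were not analysed here. The deposited cell table gives the authors' subtype, the percent of mitochondrial UMIs, a G2/M score and a cell cycle phase call for 9368 neurons. The score was not used. Summed anew from the matrices, the counts of a neuron were within 70 UMIs of its deposited total.

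The members and gene lists were chosen with earlier results of these data known. Cells outside the table were kept with 1000 to 60000 UMIs, 500 to 8000 genes and a mitochondrial share under 20%, clustered in scanpy 1.11.5 and named from fixed markers, and 825 cells of the unsorted libraries were left unnamed. No doublet caller was run, and intervals cover counting error only. For each library and group of cells, counts were added up and entered in edgeR 4.0.16 with TMM factors, filterByExpr and its quasi-likelihood F test, with Benjamini-Hochberg adjustment over all genes tested. A call needed a log2 fold change of 0.5 or more in size and an adjusted p under 0.05. SE is the absolute log2 fold change divided by the square root of F. Both cell groups come from the same library, so the library was a block in each fit, and sums needed at least 10 (barcode), 30 (Rprm) or 20 (activity) neurons per group in 3 or more libraries. To set groups by Rprm or activity genes, neurons were thinned to 10000 UMIs. Named genes were the members, the 5 highest and 5 lowest log2 fold changes among genes called in the same direction in every library, the 5 most and 3 least correlated genes, and each called member of the lists in the barcode and Rprm comparisons of the subtypes described, some of which are not reported here. The scripts were tested on simulated data. DESeq2 1.42.0, no block, no filter, other barcode limits, a depth window and leaving out libraries were alternatives, and leaving out neurons of 10 or more Rprm UMIs, those with Cplx3 or Nxph4 UMIs, and the limit of 10 barcode UMIs were chosen after seeing the data. Promoter sequences are from RefSeq on GRCm38.p6, where both genes were matched.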

Additional observations from a re-analysis of the deposited data

Results flagged for a closer look

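The effect of activity on the reprimo genes differed between subtypes in 5 of 6 tests of the difference itself (edgeR interaction, library by subtype as a block, adjusted over 11827 genes). Of all genes 19%, 10.9% and 8.68% passed for L5-S100b minus L6-Syt6, L6-Npy minus L6-Syt6 and L5-S100b minus L6-Npy. For Rprml the log2 effect in L5-S100b was larger than in L6-Syt6 by 0.40 ± 0.07 and larger than in L6-Npy by 0.69 ± 0.10, and both differences passed the test without each library in turn. The Rprml effect in L6-Npy minus that in L6-Syt6 was -0.29 ± 0.09 (edgeR adjusted p of 0.0231), and it did not pass without unsorted mouse 2 (-0.13) or mouse 3 (-0.28). For Rprm, L5-S100b exceeded L6-Syt6 by 0.41 ± 0.15, which did not pass without unsorted mouse 1, 2 or 3 (0.12, 0.47 and 0.41). L6-Npy exceeded L6-Syt6 for Rprm by 1.03 ± 0.31 (edgeR adjusted p of 0.0217), although Rprm was higher in activity-high L6-Npy neurons in 2 of 4 libraries, and this did not pass without unsorted mouse 2 (0.47) or mouse 3 (0.61). Without the neurons of 10 or more Rprm UMIs in L6-Npy and L5-S100b it was -0.05 ± 0.22 and did not pass (edgeR adjusted p of 0.931). The Rprm difference of L5-S100b and L6-Syt6 was then 0.37 ± 0.09 and passed. The Rprml differences, 0.43 for L5-S100b minus L6-Syt6, -0.35 for L6-Npy minus L6-Syt6 and 0.78 for L5-S100b minus L6-Npy, passed as well. This cut uses the Rprm count itself and left L6-Syt6 whole, so the Rprm values after it are a description.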

How the results depend on the processing

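Of the alternative shares of neurons with a UMI, 28 moved by more than the spread between replicates and 42 by less. After thinning to 10000 UMIs, Rprm was found in 15.99% of L2/3-Calb1, 22.1% of L2/3-Rorb, 29.3% of L5-Bcl6, 87.2% of L5-Htr2c, 40.6% of L5-S100b, 11.0% of L6-Npy and 95.1% of L6-Syt6 neurons, and at 2 or more UMIs in 8.19%, 15.5%, 19.2%, 82.3%, 38.1%, 4.81% and 94.7%. In the same order Rprml was found in 81.3%, 88.8%, 89.6%, 85.2%, 85.4%, 69.2% and 97.7% after thinning, and in 81.1%, 92.3%, 90.9%, 77.9%, 85.7%, 65.6% and 98.0% at 2 or more UMIs. Thinning gave 44.1 CPM of Rprm in L2/3-Rorb and 182 and 144 CPM of Rprml in L2/3-Calb1 and L6-Npy. TMM scaling gave 313 and 1275 CPM of Rprm in L5-Htr2c and L6-Syt6, and 196, 252 and 507 CPM of Rprml in L5-Htr2c, L5-S100b and L6-Syt6. In all, 76 of 84 alternative CPM values moved by less than the spread between replicates.

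In the barcode contrast, the Rprm log2 fold change without neurons of 10 or more Rprm UMIs was -0.0027 in L2/3-Calb1, -0.13 in L6-Npy, -0.60 in L2/3-Rorb and -0.31 in L6-Syt6, and with neurons of 15000 to 40000 UMIs it was 0.32 in L6-Npy and -0.79 in L2/3-Rorb. In L6-Syt6 the cut at 10 Rprm UMIs left out 4294 of 5092 neurons, which held 98.0% of its Rprm UMIs. Without each library in turn the Rprm log2 fold change ran from -0.094 to 2.52 in L2/3-Calb1, -0.39 to 0.14 in L2/3-Rorb and 0.88 to 1.39 in L5-S100b. The genes called were 25, 27 and 202 at 1 or more barcode UMIs in L6-Syt6, L6-Npy and L5-S100b, 153 and 430 at 10 or more in L6-Npy and L6-Syt6, and 9 in L6-Syt6 without neurons of 10 or more Rprm UMIs. DESeq2 called 144 in L5-S100b and 11 in L6-Npy. Without each library in turn the counts ran from 29 to 325, 46 to 75 and 180 to 285 in the same order. For Rprm-high against Rprm-zero neurons DESeq2 called 8 in L6-Npy, 53 in L2/3-Rorb and 373 in L5-S100b, and L6-Npy gave 41 at 15000 to 40000 UMIs and 36 without neurons of 10 or more Rprm UMIs. Leaving out libraries gave 166 to 292 in L2/3-Rorb and 26 to 119 in L6-Npy.

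Without the library block fewer genes were called in most contrasts, other than L2/3-Calb1 by barcode (18 against 16), and the cause was not tested. Without the block, the barcode contrast called 75 genes in L6-Syt6, 56 in L5-S100b and 0 in L6-Npy, and the Rprm contrast 0 in L6-Npy (edgeR, 406 and 320 genes at an unadjusted p under 0.05 in the L6-Npy contrasts, and 11 and 8 called by DESeq2). The activity effect on Rprm without the block was 0.21 in L6-Syt6, 1.34 in L6-Npy, 0.66 in L5-S100b and 0.73 in L2/3-Rorb, and that on Rprml 0.44 in L2/3-Calb1, 0.39 in L2/3-Rorb and 0.73 in L5-S100b, none past the test. The Rprml effect in L6-Syt6 passed in each fit, with or without the pairing.

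Other activity calls depended on settings, and the cause was not tested. In DESeq2 Rprm did not pass in L6-Npy (1.11), L5-S100b (0.61), L2/3-Rorb (0.58) and L2/3-Calb1 (1.90), nor Rprml in L2/3-Calb1 (0.44). With barcode-zero neurons only, Rprm did not pass in L6-Npy (0.34), L2/3-Rorb (0.37) and L5-S100b (0.96), nor Rprml in L2/3-Calb1 (0.16) and L2/3-Rorb (0.19). Without neurons of 10 or more Rprm UMIs, Rprm was at 0.20, 0.13 and 0.17 in L2/3-Calb1, L2/3-Rorb and L6-Npy, and Rprml at 0.39 in L2/3-Calb1 and -0.013 in L6-Npy. At 15000 to 40000 UMIs Rprm was at 0.34 in L2/3-Rorb and Rprml at -0.25 in L5-Htr2c. Leaving out libraries gave Rprm 1.12 to 2.88 in L2/3-Calb1, 0.28 to 1.05 in L2/3-Rorb and 0.69 to 1.69 in L6-Npy, and Rprml 0.38 to 0.47 in L2/3-Calb1, -0.00043 to 0.22 in L5-Htr2c and -0.062 to 0.20 in L6-Npy. The subtype differences ran for Rprm from 0.12 to 0.69 (L5-S100b minus L6-Syt6), 0.47 to 1.52 (L6-Npy minus L6-Syt6) and -1.35 to -0.0066 (L5-S100b minus L6-Npy), and for Rprml from -0.40 to -0.13 (L6-Npy minus L6-Syt6). Without neurons of 10 or more Rprm UMIs, the Rprm difference was -0.050 for L6-Npy minus L6-Syt6 and 0.42 for L5-S100b minus L6-Npy. Rprml in Rprm-high against Rprm-zero neurons ran from 0.12 to 0.30 in L2/3-Rorb and 0.23 to 0.35 in L6-Npy.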

Other observations

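Rprm was also summed by the cell cycle phase called for each neuron in the deposited table. In L6-Syt6 of the unsorted libraries Rprm was at 1133 ± 26.8 CPM in neurons called G1, 1224 ± 40.8 in those called S and 1127 ± 45.6 in those called G2M (SD, n = 3), and the S range of 1183 to 1265 lay above the G1 range of 1102 to 1151. In L5-S100b it was at 92.3 ± 18.4, 89.6 ± 10.7 and 97.2 ± 11.4 CPM. L6-Npy had 19.9 ± 4.83, 41.6 ± 19.8 and 10.4 ± 3.09 CPM, and L2/3-Calb1 23.0 ± 9.15, 88.0 ± 58.0 and 23.8 ± 0.976, subtypes in which 12 and 5 neurons held much of the Rprm. Phase calls of neurons rest on low counts of cell cycle genes, and no cycling was read from them.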
